A study of Mus musculus with 6 samples.

Results

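The group described here holds 10 genes of the exocrine pancreas, measured in RNA from the liver of mice without and with the microRNA miR-137 (Mir137-/- and Mir137+/+) on postnatal day 14. The members are the serine proteases Cela1, Cela2a, Ctrb1 and Prss2, the carboxypeptidases Cpa1 and Cpb1, the fat-digesting proteins Pnlip, Clps and Cel, and the protease inhibitor Spink1. They were selected on the log2 values of these same arrays, since they stood high on replicate 2 of both genotypes against the other 4, so that contrast is given as a description with no test. Every probe set that the platform annotation gives to exactly 1 of these symbols was taken, which found 13 of 45037 probe sets and 9 of the 10 genes. Pnlip had no probe set under its name, so its expression was not analysed here. Each genotype had 3 arrays with 1 mouse per array. The Mir137-/- animals, labelled as miR-137 knockout, lacked the microRNA in the whole body from the germline on, after Cre deletion in embryonic stem cells and crossing to C57BL/6 mice. The Mir137+/+ animals, labelled WT, came from the same kind of heterozygous intercross, and no animal received a treatment. A difference in liver RNA therefore cannot be assigned to loss of the microRNA in hepatocytes.

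Acinar cells of the pancreas make digestive enzymes, store most of them as inactive precursors in zymogen granules and release them into the duct that leads to the duodenum. Trypsin, cut free in the gut, activates the other precursors, and Spink1 blocks trypsin that becomes active too early. Colipase, the product of Clps, holds pancreatic lipase on fat droplets covered by bile salts. Transcription of these genes in acinar cells depends on the PTF1 complex, which contains PTF1A and RBPJL. Hepatocytes are not known as a major source of most of these enzymes.

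The label liver was checked against hepatocyte genes. Alb, serum albumin, lay between 13.71 and 13.79 on the log2 scale on all 6 arrays. Since 13.79 was the highest value of the data, a change in Alb may not show there. The 16 measured hepatocyte genes had median deviations from -0.02 to 0.04 on every array. Single genes varied more, such as Ass1 at 6.32, 7.93 and 7.01 on Mir137-/- replicates 1, 2 and 3. Some arrays also differed in ways the genotype does not name. The methods name male animals, but Xist, a transcript of female cells, read 10.91 (replicate 2) and 10.81 (replicate 3) in Mir137+/+ against 3.66 to 4.24 on the remaining arrays. Eif2s3y, a gene of the Y chromosome, read 2.06 and 2.51 on those 2 arrays and 8.46 to 8.62 on the remaining ones. The muscle actin Acta1 reached 11.38 on Mir137-/- replicate 1 only and lay between 4.68 and 5.84 on the rest. Neither pattern runs with the pancreas transcripts, since Mir137+/+ replicate 3 had Xist without them and Mir137-/- replicate 2 had them without Xist. In tissue RNA of this kind, more cells of a type and more RNA per cell cannot be told apart.

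Carboxypeptidases trim amino acids from the end of peptides. Cpb1, which prefers basic residues, was at 3.12, 9.53 and 3.15 in Mir137-/- and at 3.20, 7.84 and 3.07 in Mir137+/+, in the order of replicates 1, 2 and 3, which is kept for every other gene. Cpa1, which prefers other residues, was at 3.40, 7.70 and 3.48 in Mir137-/- and at 3.70, 6.28 and 3.69 in Mir137+/+. In each genotype replicate 2 stood far above its companions, while the 4 other arrays lay within 0.30 of each other for either gene. The gap between replicate 2 and the mean of replicates 1 and 3 was 6.40 for Cpb1 in Mir137-/- and 4.71 in Mir137+/+, on the deposited log2 scale. The Cpb1 companions lay below the lower quartile of the arrays (3.4 to 3.47), and without detection calls it is not known whether they were above background, so no exact fold is given for this gene or for Clps and the true gap may be larger.

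Among the proteins of fat digestion, colipase was read by 2 probe sets, and both had companions below the lower quartile. The Clps probe set 1438612_a_at was at 2.54, 9.83 and 1.82 in Mir137-/- and at 2.19, 8.08 and 2.18 in Mir137+/+, and its gaps were 7.65 and 5.90. The second Clps probe set, 1415805_at, was at 3.01, 7.87 and 2.87 and at 2.83, 5.89 and 2.74, with gaps of 4.93 and 3.11. Both probe sets placed the same arrays high, but the size of the gap depended on the probe set. Cel, a bile salt-dependent lipase, was at 3.73, 8.73 and 4.06 in Mir137-/- and at 4.40, 7.19 and 4.17 in Mir137+/+, with gaps of 4.84 and 2.91 on the log2 scale.

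Outside the replicate 2 arrays, most serine proteases lay near the array medians (4.88 to 4.91) or below. Ctrb1, chymotrypsinogen B, was at 4.82, 9.07 and 4.58 in Mir137-/- and at 4.38, 7.36 and 4.42 in Mir137+/+. Cela2a, an elastase, was at 4.84, 8.56 and 4.80 and at 5.12, 7.97 and 4.89. For both, the replicate 2 arrays were the only ones above 5.12. Prss2, an anionic trypsinogen, had 4 probe sets whose gaps ran from 3.27 to 4.64 in Mir137-/- and from 1.42 to 2.82 in Mir137+/+. Its probe set 1435507_x_at was at 4.67, 9.14 and 4.51 in Mir137-/- and at 4.60, 7.30 and 4.37 in Mir137+/+. Trypsinogen genes are close copies of each other. Prss2 probe sets ending in _x_at may hold probes that match other genes, so their signal may belong to several trypsinogens. The suffix of 1417682_a_at stands for several transcripts of 1 gene. Cross-matching was not tested for any of the 4.

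Cela1, another elastase, and Spink1 differed from the rest of the group. Cela1 was at 7.42, 8.40 and 6.97 in Mir137-/- and at 7.45, 8.49 and 7.78 in Mir137+/+, which gives gaps of 1.21 and 0.88. Spink1 was at 6.64, 7.75 and 5.94 in Mir137-/- and at 5.43, 6.28 and 5.47 in Mir137+/+, with gaps of 1.46 and 0.83. For Cela1 replicate 2 was still the highest array of each genotype, but all 6 arrays lay at 6.97 or above, well over the array medians. For Spink1 the Mir137-/- replicate 1 array, at 6.64, stood above the Mir137+/+ replicate 2 array.

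**Figure D1:**
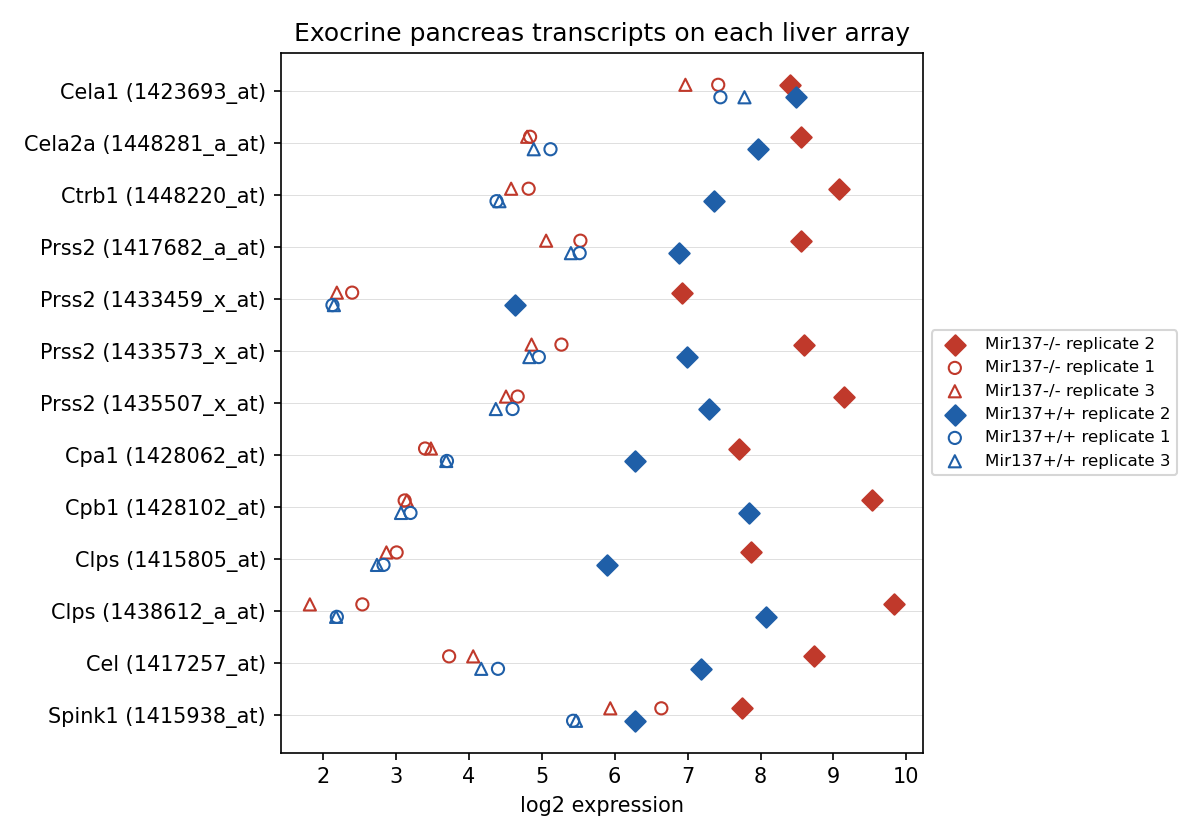
Log2 expression (horizontal axis) of the 13 probe sets of 9 exocrine pancreas genes (rows) on each of the 6 liver arrays, with Mir137-/- in red, Mir137+/+ in blue, and replicate 2 as filled diamonds. Replicate 2 lies to the right of the other arrays of its genotype, for example at 9.53 and 7.84 for Cpb1 against 3.07 to 3.20. Cela1 and Spink1 have narrow gaps, and for Spink1 Mir137+/+ replicate 2 (6.28) lies left of Mir137-/- replicate 1 (6.64).

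Across the 13 probe sets the median gap was 4.37 on Mir137-/- replicate 2 and 2.82 on Mir137+/+ replicate 2, on the log2 scale. Over all 45037 probe sets the medians were 0.02 and -0.01. Gaps above 1 in both genotypes were found for 11 of the 13 probe sets, against 0.0844% of all probe sets. The rule used this contrast, so nothing is read from that count. The other 2 probe sets, those of Cela1 and Spink1, passed 1 only in Mir137-/-. The replicate 1 and 3 arrays differed from each other by at most 0.72 for any member in Mir137-/- and by at most 0.33 in Mir137+/+.

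The gap was wider on the Mir137-/- array than on the Mir137+/+ array for all 13 probe sets, by a median of 1.69 on the log2 scale. These are values of 1 array per genotype, so they hold no replicate check and say nothing of the genotype. On the linear scale, the excess over the companions was 3.57-fold larger on Mir137-/- replicate 2 (median over probe sets). This ratio was 3.32 for Cpb1, 3.04 for Cpa1, 3.24 for Cel and 3.57 for Ctrb1, and 3.40 and 4.32 for the Clps probe sets. It ran from 3.61 to 5.75 over the Prss2 probe sets. Cela2a (1.60) and Cela1 (1.17) lay lower, and Spink1 was at 4.03. Apart from Cela2a and Cela1, the ratio lay between 3.04 and 5.75 for every member probe set. A low ratio was neither common to all elastases nor limited to them. Outside the members, the elastase Cela3b ran from 2.97 to 4.29 over its probe sets, and the acinar gene Dmbt1 was at 1.94. The depth of array data gives no counting error, and how RMA or GCRMA compresses low and high signals was not tested.

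Over the whole array, 38 probe sets stood more than 1 above the mean of replicates 1 and 3 in both genotypes. Of these, 34 had 1 gene symbol, and all 34 belonged to the members or to other lists of pancreas genes: 11 to the members, 19 to other acinar secreted proteins, 1 to acinar machinery and 3 to islet genes. The other 4 had several symbols and were named for no gene. With 1 probe set per gene, 18 of 18193 genes (0.0989%) passed, 7 members, 10 other acinar genes and 1 islet gene, with 0 outside the lists. No gene lay more than 1 below its companions on both replicate 2 arrays. The lists were written with earlier results of these data known, so these counts are a description.

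**Figure D2:**
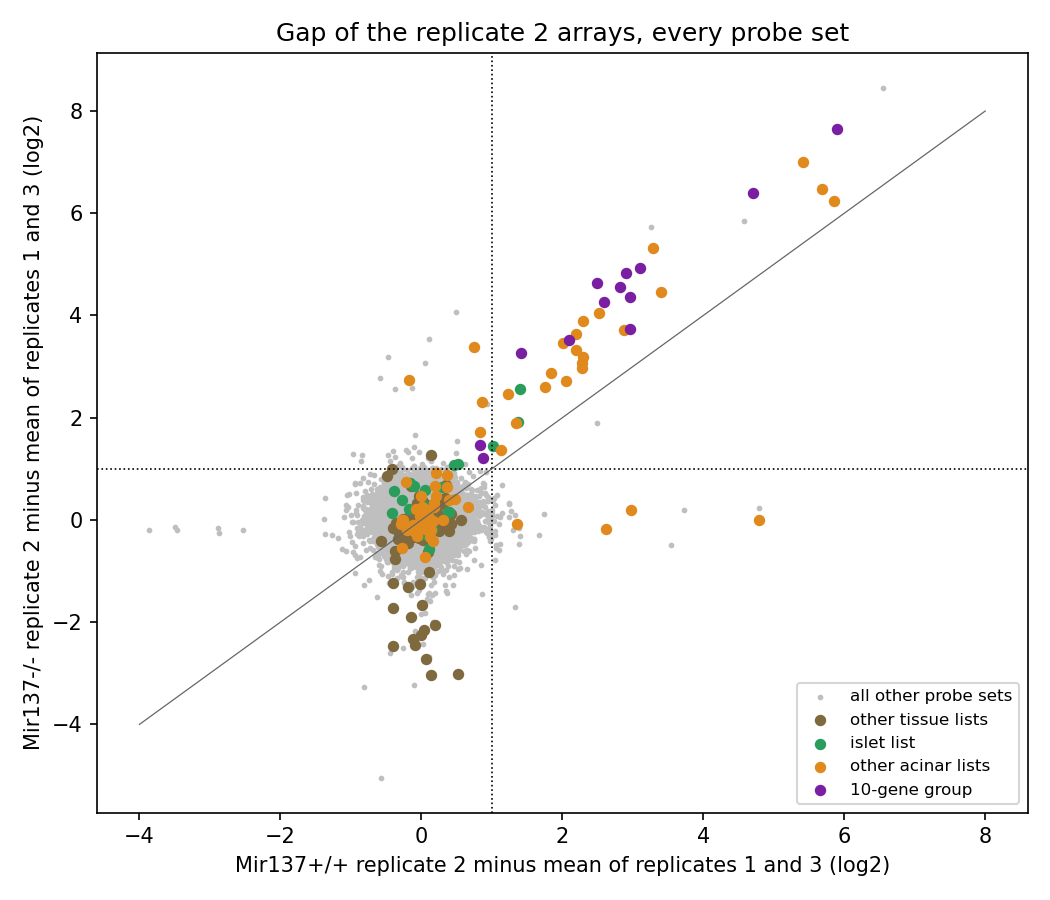
Gap of replicate 2 over the mean of replicates 1 and 3 (log2) in Mir137+/+ (horizontal) and in Mir137-/- (vertical) for all 45037 probe sets, with members in purple, other acinar lists in orange, islet genes in green, other tissue lists in brown, dotted lines at 1 and a diagonal at equal gaps. The 38 probe sets past 1 on both axes include 11 of the 13 member probe sets, and 37 of the 38 lie above the diagonal.

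Some other secreted proteins of acinar cells stood high on the same arrays. Of 25 measured genes, 9 had gaps above 1 in both genotypes by their brightest probe set, and 11 by any probe set. Klk1 passed by 1415837_at (3.08 and 2.28) but not by its brightest probe set, 1460050_x_at (0.015 and 0.09). Reg1, a secreted lectin-like protein, was at 2.45, 8.78 and 2.62 in Mir137-/- and at 2.32, 8.45 and 2.86 in Mir137+/+. Pnliprp2, a lipase-related protein (gaps of 2.72 and 2.05), the elastase Cela3b (6.36, 9.02 and 5.93 against 5.97, 7.71 and 5.77), the chymotrypsin-like protease Ctrl (gaps of 3.33 and 2.19), the zymogen granule protein Zg16 (2.98 and 2.28) and Dmbt1, a mucin-like scavenger protein (3.73 and 2.88), showed the same arrays high. So did 2210010C04Rik, a trypsinogen-like gene (4.04 and 2.53). The gaps of Reg1 were nearly equal on both arrays (6.25 and 5.86), and its linear excess ratio was 1.26, below that of all members but Cela1. Pnliprp1, another such lipase relative, next to Pnlip on chromosome 19, was at 8.48, 10.35 and 8.78 and at 8.57, 9.39 and 8.55, with gaps of 1.72 and 0.83.

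Some acinar genes were high on 1 of these arrays alone, which was noticed after their values were seen. Reg2, Reg3a and Reg3b, relatives of Reg1 that acinar cells make more of under stress or inflammation, passed 1 on Mir137+/+ replicate 2 and not on Mir137-/- replicate 2. Reg2 was at 4.95, 5.07 and 4.80 in Mir137-/- and at 5.22, 7.81 and 4.45 in Mir137+/+. The Reg3b probe set 1448290_at was at 2.17, 2.24 and 2.31 and at 2.20, 6.98 and 2.18, and 1416297_s_at showed the same array high at 6.28. Reg2 and Reg3b thus stood apart on 1 array of 6. Conversely Gp2, the main membrane glycoprotein of zymogen granules, was at 2.89, 5.65 and 2.95 in Mir137-/- and at 3.01, 2.90 and 3.13 in Mir137+/+. Prss3, another trypsinogen, had gaps of 3.38 and 0.74. In all, 4 of the 43 measured genes of both acinar lists passed 1 in Mir137-/- alone (Gp2, Pnliprp1, Prss3 and Sycn) and 3 in Mir137+/+ alone. For Sycn, a granule protein, the less bright probe set 1434803_a_at passed in both (2.46 and 1.24). Amy1, an amylase gene that liver also expresses, lay between 11.05 and 11.39 on all arrays.

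The regulators of acinar identity did not show the pattern. Ptf1a was at 2.43 on Mir137-/- replicate 2 and 2.78 on Mir137+/+ replicate 2, inside the range of the others (2.46 to 2.82) or just under it. Rbpjl had gaps of -0.41 and 0.17. Bhlha15, which organises the secretory apparatus, had gaps of 0.48 and 0.00. Of 18 genes of this list only Pdia2, a protein disulfide isomerase of the pancreas, passed 1 in both genotypes (1.90 and 1.35). The next by the smaller of its gaps was Tmed6, with 0.39 in either genotype. Ptf1a lay below the lower quartile of the arrays on all 6, so low expression of this factor could not be seen here.

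Some islet genes were also higher on these arrays, to a smaller extent. Ins2, an insulin gene, was at 5.40, 6.90 and 5.50 in Mir137-/- and at 5.43, 6.39 and 5.32 in Mir137+/+. Iapp, the amyloid peptide of beta cells, had 4 probe sets with gaps from 1.08 to 2.57 in Mir137-/- and from 0.46 to 1.40 in Mir137+/+. Ppy, pancreatic polypeptide, had gaps of 0.64 and 0.29, Nkx6-1, a beta cell transcription factor, of 0.16 and 0.40, and Sst, somatostatin, of 0.04 and 0.12. For the 18 islet genes the median gap was 0.26 in Mir137-/- and -0.02 in Mir137+/+. Of the duct genes, Krt19 had gaps of 0.32 and 0.31 and Sox9 of 0.29 and 0.20, while Cftr lay at 1.99 to 2.21 on all arrays. The list medians of 10 stomach genes were -0.05 and -0.08, and those of 15 small intestine genes were 0.00 and 0.03, with 0 genes of either list past 1 in both. Skeletal muscle genes were high on Mir137-/- replicate 1 instead, with a median deviation of 2.46, against -1.10 to -0.78 on the others.

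**Figure D3:**
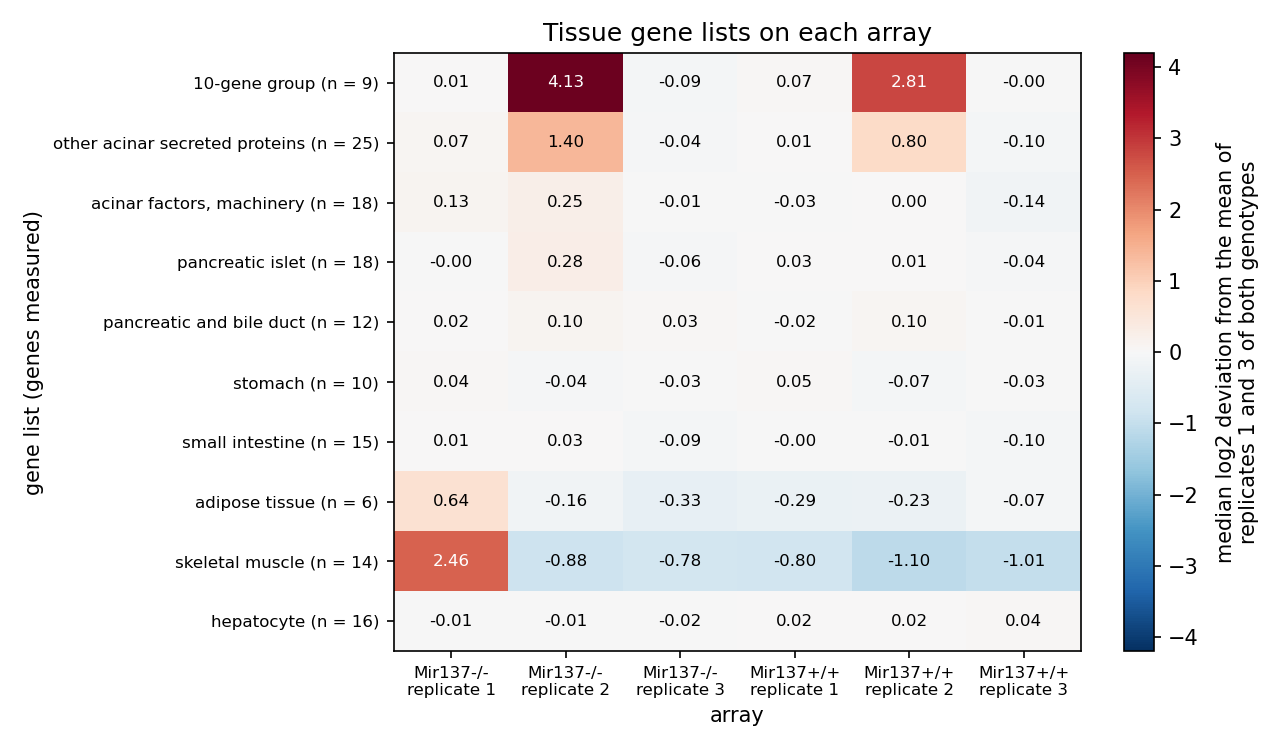
Median log2 deviation of each gene list (rows, with the number of genes measured) from the mean of replicates 1 and 3 of both genotypes, on each array (columns). The members stand at 4.13 and 2.81 and other acinar secreted proteins at 1.40 and 0.80 on the replicate 2 arrays, whereas hepatocyte, duct, stomach and intestine lists stay near 0 and skeletal muscle stands out on Mir137-/- replicate 1.

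Outside all lists, the 20 genes with the largest step of replicate 2 over the higher companion in both genotypes had steps of 0.36 to 0.59, below but not far from those of Cela1 (0.71) and Spink1 (0.81). The first was Tmem184a, at 5.24, 5.97 and 5.30 in Mir137-/- and at 5.01, 5.74 and 5.15 in Mir137+/+. Tox2 followed with 0.46. Itga3, an integrin subunit, and Rimklb correlated with the mean member profile at 0.99 each over 6 arrays that share the same 2 high values. Vldlr, a lipoprotein receptor, had a step of 0.45 but correlated at 0.39, and it was higher in Mir137-/- by 2.35 (limma, adjusted p = 0.00125).

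The comparison of the genotypes asks which transcripts differ without miR-137. Mir137+/+ replicates 2 and 3 had high Xist and low Eif2s3y, and the other arrays had the reverse. Genotype therefore overlaps with sex in this comparison, and the part of sex was not tested. The comparison is also not independent of the choice of members, because that choice placed 1 high array inside each genotype and so widened the spread within both. The counts on all 6 arrays are therefore given beside the background and nothing is read from them. In limma across 45037 probe sets, 0 of the 13 member probe sets were called at an adjusted p below 0.05 and more than 1.5-fold, against 4.52% of all probe sets. At an unadjusted p below 0.05, 1 of the 13 passed (Spink1), against 22.3% of all probe sets. By the methods' t-test 0 passed at that fold, against 4.74% of all probe sets without adjustment and 1.05% with it. The differences, Mir137-/- minus Mir137+/+, ran from -0.31 to 1.05 on the log2 scale with a median of 0.58, and 12 of 13 were positive. Their adjusted p ran from 0.18 to 0.979.

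These differences were poorly determined while the replicate 2 arrays were in the fit. The median standard error of the members was 1.2, against 0.118 over all probe sets. Clps (1438612_a_at) averaged 4.15 ± 3.40 over the Mir137+/+ arrays and 4.73 ± 4.43 over the Mir137-/- arrays (SD, n = 3 per genotype), and its difference of 0.58 had a 95% interval from -4.46 to 5.62. For Cpb1 the difference was 0.56, with an interval from -3.57 to 4.70. Without replicate 2 of both genotypes the median standard error fell to 0.14, against 0.136 over all probe sets. The members then had 6 positive and 6 negative differences and a median of 0.00, and 0 of 13 were called, against 2.15% of all probe sets. Cpb1 was then at 0.00 (95% interval -0.29 to 0.29), and the Clps probe sets were at -0.01 (-0.58 to 0.57) and 0.16 (-0.15 to 0.46). The intervals of Cela1 (-0.90 to 0.06), Cel (-0.79 to 0.01) and Ctrb1 (-0.03 to 0.63) reached further from 0. Cpb1, Clps and the Prss2 probe set 1433459_x_at lay below the lower quartile on these 4 arrays. For them a narrow interval does not show that a difference is absent. The choice of members asked for replicate 2 to stand above these 4 arrays, and so favoured probe sets that read low on all of them. The count and the smaller errors without replicate 2 are therefore a description, and nothing is read from them.

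Leaving out 1 replicate 2 array keeps the high array of the other genotype in the fit. A shift towards that genotype then follows from the choice of members, so these fits are a description and nothing is read from them. Without Mir137-/- replicate 2, 11 of 13 differences changed sign, the median was -0.83 and 12 of 13 were negative. Without Mir137+/+ replicate 2 no sign changed and the median was 1.35. Of the 13, 0 were called in either fit, against 3.93% and 3.64% of all probe sets (adjusted p of the members from 0.228 to 0.701 and from 0.166 to 0.987).

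Spink1 was the member nearest to a genotype difference. It averaged 5.73 ± 0.48 over the Mir137+/+ arrays and 6.78 ± 0.91 over the Mir137-/- arrays (SD, n = 3 per genotype), a difference of 1.05 (SE 0.42, adjusted p = 0.18 in limma). Without the replicate 2 arrays the difference was 0.84 (adjusted p = 0.144), and both remaining Mir137-/- arrays, at 6.64 and 5.94, lay above both remaining Mir137+/+ arrays, at 5.43 and 5.47. It was positive without any 1 array as well, from 0.56 to 1.47. Cela1 was at -0.31 (SE 0.37, adjusted p = 0.688), and without the replicate 2 arrays at -0.42 (adjusted p = 0.354). Neither passed the threshold in these 2 fits.

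**Figure D4:**
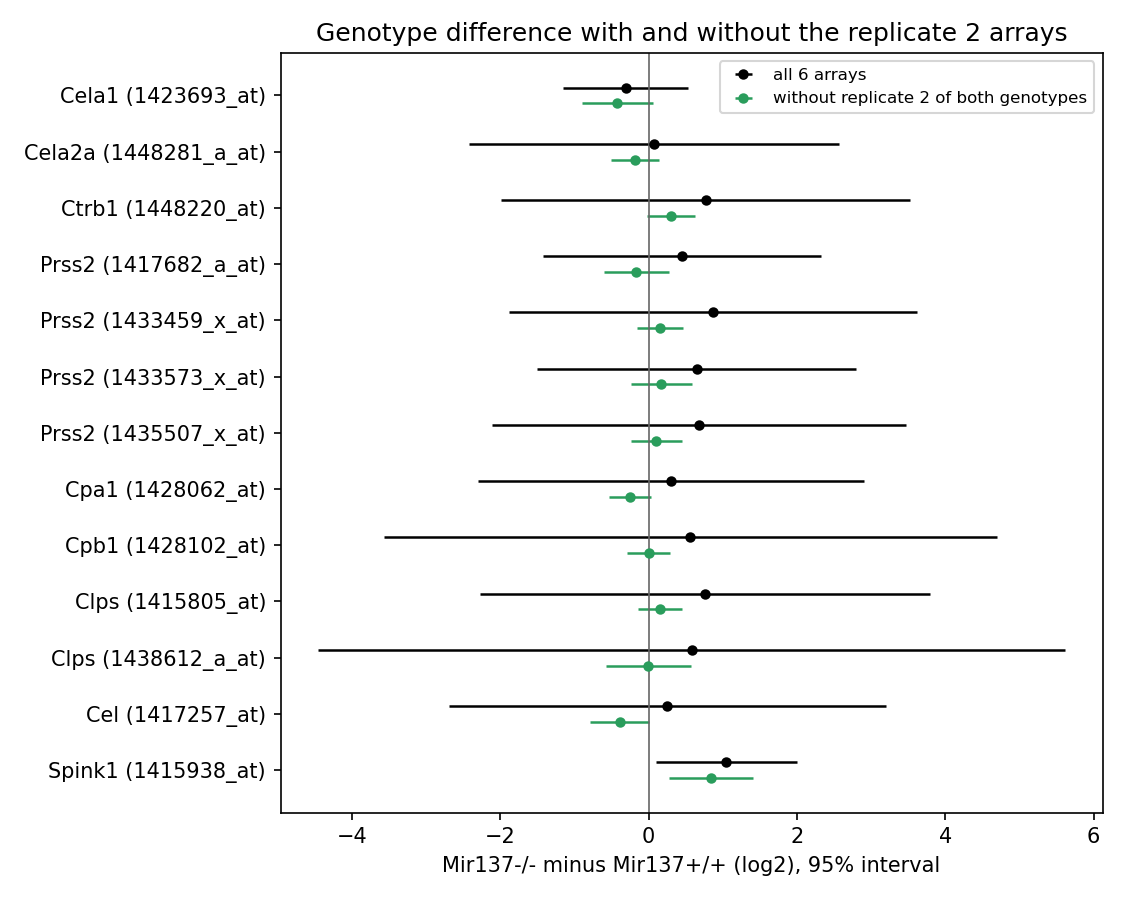
Difference Mir137-/- minus Mir137+/+ (log2, points) with its 95% interval from limma (bars) for the 13 member probe sets, fitted on all 6 arrays (black) and without replicate 2 of both genotypes (green). The intervals shrink from as wide as -4.46 to 5.62 (Clps) to within 1 of 0 for all but Spink1, whose difference is 0.84 without the replicate 2 arrays.

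At the gene level, 0 of 9 measured members and 0 of 25 other acinar secreted proteins were called between genotypes, against 5.67% of 18193 genes, or 3.4% without the replicate 2 arrays. The medians of these lists were 0.45 and 0.15, beside 0.00 over all genes, and -0.17 and 0.07 without the replicate 2 arrays. The choice of members and lists bears on these counts and medians, so nothing is read from them. Of 18 genes for acinar factors and machinery, Slc38a5, an amino acid carrier, rose by 1.58 (adjusted p = 7.27e-04), Rab3d, a GTPase of secretory vesicles, rose by 1.21 (adjusted p = 0.00173), and Aqp8, a water channel, fell by 1.64 (adjusted p = 0.0035). Slc38a5 was at 5.94, 5.97 and 5.51 in Mir137-/- and at 4.30, 4.23 and 4.15 in Mir137+/+, so replicate 2 did not stand apart for it. All 3 were also called without the replicate 2 arrays, with Rab3d at 1.14 and Aqp8 at -1.38. These genes are also expressed outside the pancreas. Sex overlaps with genotype in these calls as well, and its part was not tested.

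The promoters of 8 members were read from RefSeq (GRCm38.p6, 250 bases before to 50 after the start site). Those of Clps and Spink1 were left out and not searched, so the counts out of 8 below do not cover every member. The 8 include Pnlip, whose expression was not measured, and in which none of these letters were found. They are shown because the measured members stood high on the same arrays and because PTF1 is known to bind an E-box beside a TTTCCCA box. The letters TTTCCCA were found on either strand in 5 of the 8 promoters, against 8.06% of 32851 promoters of this length. CACCTG, an E-box that is a special case of CANNTG, was found in 5 of 8, against 20.2%. Both were found somewhere in the same promoter in 3 of 8 (Cel, Cela2a and Prss2), against 1.61%. From the start site, TTTCCCA and the nearest CACCTG were at -87 and -65 in Cel. They were at -85 and -218 in Cela2a and at -111 and -169 in Prss2. The count did not ask whether they lay side by side. CANNTG in any form was found in 7 of 8, against 72.3%. A match is a description of the letters and not of a bound site. The windows below hold TTTCCCA in capitals, read 5′ to 3′ on the strand that carries it:
Cel (chr2:28563473-28563502, plus strand): atggtccatttTTTCCCAggtcaggctggc
Cela2a (chr4:141826073-141826102, plus strand): aaggtggagatTTTCCCAaagtccagtgca
Cpa1 (chr6:30639186-30639215, minus strand): tactcattcggTTTCCCAcagccccagata
Prss2 (chr6:41521653-41521682, minus strand): gcaggtttctcTTTCCCAgagtcttgcatc
Ctrb1 (chr8:111691187-111691216, minus strand): gcagctgtcctTTTCCCAtgggttgggcaa
In the first 4 of these genes the box lay on the strand opposite to the gene, and its first base in the direction of the gene was at -87, -85, -20 and -111 from the start site. In Ctrb1 it lay on the gene's own strand at -195. All 5 windows are upstream of the transcribed part, in the promoter.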

How the data were processed

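Total liver RNA was hybridised by the authors to whole-genome mouse arrays of Affymetrix. The authors deposited log2 values per probe set, summarised by RMA and a baseline-to-mean step per the methods, or by GCRMA per the labels. Values were used as deposited (1.22 to 13.79), without detection calls, and 64 control probe sets were left out. Of 45037 probe sets, 34945 had 1 gene symbol, 932 several and 9160 none, from the platform annotation, updated by Entrez gene (GRCm38.p6). Genotypes were compared in limma 3.58.1 (R 4.3.3), using lmFit on 2 group means without covariates and eBayes. Calls needed a Benjamini-Hochberg adjusted p below 0.05 and over 1.5-fold. For gene lists the brightest probe set per gene was used. The rule for named genes took the members, the 6 genes per list with the largest smaller gap over both genotypes, called acinar genes and 20 genes outside the lists, and only some of these are given. Acta1, Alb, Amy1, Bhlha15, Cela3b, Eif2s3y, Gp2, Klk1, Pnliprp1, Prss3, Ptf1a, Rbpjl, Reg2, Reg3a, Reg3b, Sst, Sycn and Xist fall outside it and were named with their values seen. Members, lists and tests were chosen with earlier results of these data known. The fit was tested on simulated data. Array number limits precision, and 3 against 3 arrays allow no two-sided exact p below 0.1.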

Additional observations from a re-analysis of the deposited data

How the results depend on the processing

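The count of called probe sets was 2036, and 1485 to 2199 without any 1 array. It was 967 without replicate 2 of both genotypes, 3481 with no fold threshold, 475 with the methods' t-test after adjustment, and 282 without the Mir137+/+ arrays with Xist (added after the data were seen, which leaves Mir137+/+ replicate 1 alone and assumed to vary like the others). The count of called members was 0 in every fit, without any 1 array included (0 to 0), except 1 with the replicate block, which was Spink1 (1.05, adjusted p = 0.0305). The labels do not say whether the replicate numbers pair the samples, and this was not tested. Deviations of same-numbered arrays correlated at 0.081, 0.211 and 0.004, and those of the other pairs at -0.152 to 0.078. With 3 arrays per genotype these values cannot decide it. The block gave 1917 called probe sets. The median gap in Mir137+/+ was 2.91 without the probe sets ending in _s_at, _x_at or _a_at. Quantile normalization and median centring changed no direction of a member and no call. Genotype differences that changed sign without replicate 2 of both genotypes were those of Cela2a (-0.19), Prss2 1417682_a_at (-0.17), Cpa1 (-0.26), Clps 1438612_a_at (-0.005) and Cel (-0.39), and Cela1 was at 0.15 without the arrays with Xist. Leaving out 1 array gave -1.36 to 1.22 for Cel, -0.71 to 0.0033 for Cela1, -1.17 to 1.06 for Cela2a, -0.88 to 1.80 and -1.97 to 2.55 for Clps, -1.12 to 1.17 for Cpa1, -1.57 to 2.13 for Cpb1, -0.69 to 1.76 for Ctrb1, and for the Prss2 probe sets -0.64 to 1.11, -0.68 to 1.70, -0.53 to 1.35 and -0.83 to 1.62. The cause was not tested. The mean of all probe sets per gene left the calls of the other lists at 7.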
